A study of Rattus norvegicus with 43 samples.

Results

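Gene expression in the colonic mucosa of rats fed fish oil was compared with that of rats fed olive oil at 10 wk after treatment with azoxymethane, an alkylating carcinogen used to produce colon tumours in rats and mice. The members are the 4 fish oil and 5 olive oil rats whose labels give these diets and this time, 9 of the 29 rats measured, and they carry 15 of the 43 arrays. All were male Sprague Dawley rats given azoxymethane, at a labelled dose of 15 mg/kg, and their diets differed in the type of fat. The labels call them weanling, which describes young rats and cannot hold 10 wk later. Each sample's own label gives 10 wk after injection, whereas the treatment protocol describes a repeat injection and an end 9 wk after it. No rat in the series went without the carcinogen, and the sources used here do not give the fat content of the diets, the time on diet or whether the tissue held lesions. Rats fed corn oil at 10 wk (5 rats) and the fish oil and olive oil rats killed at 12 h (5 of each, other animals) gave values for comparison.

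Fish oil supplies eicosapentaenoic and docosahexaenoic acid, n-3 polyunsaturated fatty acids that enter membrane phospholipids, compete with arachidonic acid for the enzymes that make prostaglandins and leukotrienes, and bind the nuclear receptors of the PPAR family. Olive oil is mainly oleic acid, a monounsaturated fatty acid. In the colon the surface epithelium absorbs water and salt, the crypt base renews it, and both cells and their secreted mucins depend on protein folding in the endoplasmic reticulum (ER). The study's title places the late rats at the progression stage of colon cancer and asks which expression signatures diet modifies.

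RNA was hybridised to 1-colour CodeLink arrays, and the values below are log2 spot intensities after background correction and quantile normalization, with 1 value per rat, so that a difference of 1 is 2-fold. Repeat arrays of rats 234, 236, 334 and 336 were averaged. Median signal above background ranged from 255.8 to 656.1 over the 15 arrays, and 91.6% to 99.8% of spots exceeded the scanner's noise level. Of the 10 epithelial markers chosen to check the tissue, 3 are on the array and were tested. Tff3, a goblet cell secretory peptide, ranged from 13.77 to 14.64 in the 9 rats, Vil1, which encodes the brush border protein villin, from 13.10 to 13.62, and Aqp8, a colonocyte water channel, from 11.21 to 12.92. Their means over all rats lay above those of 99.6%, 98.0% and 91.0% of the tested probes.

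Arrays also differed in how they were scanned. All 4 fish oil rats and olive oil rats 332, 334, 335 and 336 had arrays of 1 scan class, with a large background ring. The lone array of olive oil rat 333 had larger and more uneven spots. Of the 4 arrays of fish oil rat 236, 3 had a high background. Arrays of different rats on the same diet differed with a median SD of the difference over probes of 0.33 within a class and 0.509 across classes, and the 2 diets differed within a class by a median SD of 0.35. Rats 335 and 236 agreed least with the other 8, at median correlations of 0.956 and 0.960. The 2nd and 3rd array of rat 236 differed by an SD of 0.066, less than any other repeat pair, and all 4 arrays of that rat count as 1 value. Where leaving out rat 333 or rat 236 moved the difference of a gene named below by over 1.5 times, the value without that rat is given. Ctsc, Dnajc3, Hspe1, Hspa8, Pigr, Cd37, Jchain and additional probes of a gene, except those of Fabp2, were not checked in this way.

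No probe differed between fish oil and olive oil at 10 wk at an adjusted p under 0.05. The test was limma's over 6374 probes, 75.4% of those on the array, with Benjamini-Hochberg adjustment over all of them, and it called 0 probes (0%). The smallest adjusted p was 0.568. Before adjustment 302 probes (4.74%) had a p under 0.05, 112 higher (1.76%) and 190 lower (2.98%) in fish oil, where 318.7 would fall by chance if no probe differed. The median difference over all tested probes was 0.002, and 50.6% of the differences were positive. In 129 probes (2.02%) the 4 fish oil rats did not overlap with the 5 olive oil rats, 67 with all fish oil rats higher (1.05%) and 62 with all lower (0.973%). Among the 4427 named genes, each by 1 probe, 204 (4.61%) had an unadjusted p under 0.05, 75 higher (1.69%) and 129 lower (2.91%), and 81 (1.83%) did not overlap.

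The intervals show what size of difference the data leave possible, with the spread between rats estimated within all 6 groups. The 95% interval of a difference had a median half-width of 0.29, and it was 0.21 and 0.51 at the 10th and 90th percentile of probes. For 6168 probes (96.8%) the interval lay within 2-fold in either direction, and for 5096 (79.9%) within 1.5-fold. A measured difference exceeded 2-fold in 7 probes and 1.5-fold in 65. The plot of all probes shows the p-values spread about evenly, with no excess near 0.

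**Figure D1:**
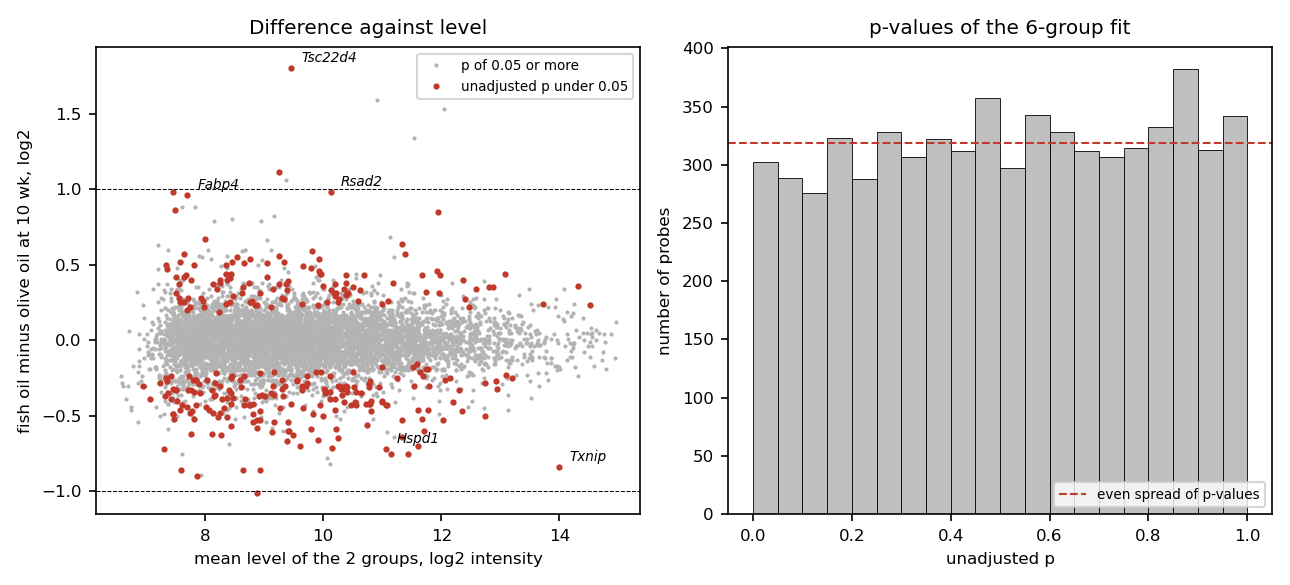
Left, difference between fish oil and olive oil at 10 wk (log2) against the mean level of both groups (log2 intensity) for the 6374 tested probes, with dashed lines at 2-fold; right, number of probes by unadjusted p in 20 equal bins, with the number an even spread would give. Red points are the 302 probes at an unadjusted p under 0.05, none of which passed after adjustment, and Tsc22d4 has the largest difference.

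Because nothing passed, the genes that follow are described as measured and not as changed. They were taken by a rule that fills 12 genes in each direction by smallest unadjusted p, and none of these 24 has an adjusted p below 0.568. The 12 with higher values in fish oil were also positive at 12 h in other rats, and 10 of the 12 with lower values were negative there. Over all tested probes 55.1% had the same sign at both times, as had 77.8% of those at an unadjusted p under 0.05 at 10 wk. Scan class moved with diet at 12 h, and without large spots arrays these shares were 48.5% and 64.9%. The 2 groups did not overlap in 6 of the 12 higher and 6 of the 12 lower genes, a count the choice by p favours. The mean of the corn oil rats at 10 wk lay nearer to olive oil than to fish oil in 9 of the 12 higher and in all 12 lower genes. For the nearness to corn oil the share over all tested probes was not counted, so these counts do not show which diet stands apart.

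Tsc22d4 had the largest difference of all tested probes. It encodes a leucine zipper protein of the TSC22 domain family, which in mouse liver takes part in lipid metabolism. Its level was 10.90, 10.49, 10.69 and 9.31 in fish oil rats 232, 233, 234 and 236 and 8.84, 8.02, 8.51, 8.76 and 8.63 in olive oil rats 332, 333, 334, 335 and 336. Every fish oil rat lay above every olive oil rat, and rat 236 lay closest to them. The difference was 1.80 (SE 0.45, 95% interval 0.87 to 2.72), or 3.47-fold, with a limma p of 0.000459 and an adjusted p of 0.568. An exact 2-sided permutation test over the 9 rats gave p = 0.0159, the smallest that 4 rats against 5 allow, for a gene picked after its values were seen. Corn oil rats stood between, at 9.51 ± 1.12 (SD, n = 5), and at 12 h the difference was 0.68 (SE 0.42).

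Whether Tsc22d4 passes depends on how repeat arrays and scans are handled. It stayed between 1.61 and 2.14 in all 31 settings and passed in 4 of them. With scan class as a block it was 1.98 (adjusted p = 0.0401), within the large ring class, with 4 rats against 4, it was 1.94 (adjusted p = 0.00175), and with the first array of each rat it was 2.07 (adjusted p = 0.0369). Array quality weights gave 1.98 (adjusted p = 0.0189). Without the high-background arrays it was 2.04 (adjusted p = 0.0673), without rat 236 it was 2.14 (adjusted p = 0.67) and without rat 333 it was 1.66 (adjusted p = 0.597). Tsc22d2, a gene of the same family, was measured 0.86 higher (SE 0.29), with overlapping groups, at 7.92 ± 0.59 (SD, n = 4) against 7.06 ± 0.19 (SD, n = 5). Its probe is dim. Of the 9 rats only fish oil rats 234 and 236, at 8.57 and 8.25, exceeded the cut for tested probes, log2 7.66. High values in fish oil rats thus helped to admit Tsc22d2 to the test, and it is no independent support for Tsc22d4.

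**Figure D2:**
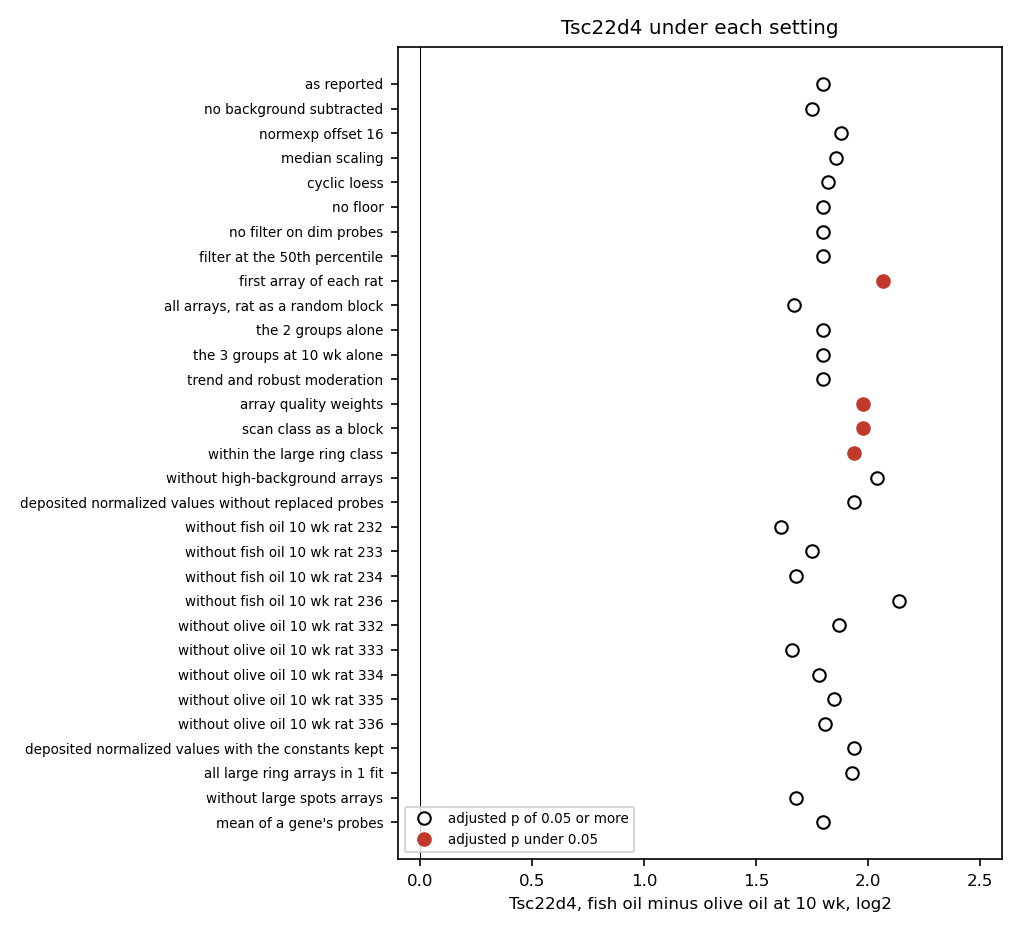
Difference of Tsc22d4 between fish oil and olive oil at 10 wk (log2) in the reported analysis and under each of 30 alternatives; filled points have an adjusted p under 0.05. The difference lies between 1.61 and 2.14 throughout and passes in 4 settings, all of which concern repeat arrays, array weights or scan class.

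Of the 12 higher genes 2, Aqp8 and Ceacam1, are on the list for surface colonocytes. Aqp8 was 12.92, 12.56, 11.96 and 12.05 in the fish oil rats and 12.01, 11.21, 11.32, 11.45 and 11.60 in the olive oil rats. Olive oil rat 332 lay within the fish oil range, and the difference was 0.85 (SE 0.28, adjusted p = 0.657). At 12 h it was 0.87 (SE 0.28). Ceacam1, an adhesion molecule of epithelial and other cells, was 11.78, 11.63, 11.37 and 11.80 against 11.41, 10.57, 10.68, 11.20 and 11.19, a difference of 0.64 (SE 0.19, adjusted p = 0.568). Here too only rat 332 overlapped with the fish oil rats, and the 12 h difference was 0.42 (SE 0.18). The 20 tested genes of the surface colonocyte list did not share this: 10 differences were positive and 10 negative, with a median of 0.01, and Aqp8 and Ceacam1 were the 2 at an unadjusted p under 0.05.

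Fabp4, which encodes the fatty acid binding protein of adipocytes and macrophages, was 8.83, 7.15, 8.32 and 8.43 in the fish oil rats and 6.93, 7.96, 7.0, 7.14 and 7.08 in the olive oil rats. Fish oil rat 233 lay among the olive oil rats and olive oil rat 333 among the fish oil rats. The difference was 0.96 (SE 0.27, adjusted p = 0.568), and the exact 2-sided permutation test gave p = 0.0317, again for a gene picked after its values were seen. Without rat 333 the difference of Fabp4 was 1.15 (adjusted p = 0.432). Adipoq, the adipocyte hormone adiponectin, was 8.35, 6.55, 8.07 and 7.77 against 6.51, 7.94, 7.10, 7.05 and 6.83. It placed the same 2 rats, 233 and 333, outside the range of their groups' other rats. For both genes fish oil rats 232, 234 and 236 and olive oil rat 333 exceeded the cut for tested probes, log2 7.66. The mean of Fabp4 was 7.09 in corn oil rats at 10 wk and 8.06 and 7.28 in fish oil and olive oil rats at 12 h. High values in fish oil rats thus helped to admit these dim genes to the test. Of the 20 adipocyte genes listed 11 are on the array and 7 were tested, with 3 positive and 4 negative differences and a median of -0.11. Besides Fabp4 only Pck1 was at an unadjusted p under 0.05, and it was lower in fish oil, at -0.32 (SE 0.15). The mean level of the 7 genes ranged from 9.43 to 9.85 in fish oil and from 9.37 to 9.79 in olive oil rats. Its part in the Fabp4 values was not tested. In tissue RNA, fewer cells of a type and less RNA per cell cannot be told apart. At 12 h Fabp4 differed by 0.78 (SE 0.25) and Adipoq by 0.59 (SE 0.31).

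Rsad2, the interferon-induced antiviral enzyme viperin, was 11.13, 10.57, 10.50 and 10.26 in the fish oil rats and 9.79, 9.45, 9.46, 9.77 and 9.70 in the olive oil rats. The groups did not overlap. The difference was 0.98 (SE 0.31, adjusted p = 0.619), or 1.98-fold, and 0.23 (SE 0.29) at 12 h. In 1 setting, array quality weights, Rsad2 passed at 1.09 (adjusted p = 0.0364). Of 19 tested interferon response genes 13 had positive differences, with a median of 0.16 (0.08 to 0.20 over 31 settings) against -0.002 over the 4427 named genes, and Rsad2 was the 1 at an unadjusted p under 0.05. Irf7, a transcription factor of the interferon response, was measured 0.38 higher (SE 0.23), or 0.58 without rat 236, and Irf1 0.22 (SE 0.14), both with overlapping groups. The mean level of the list was 9.70, 9.44, 9.44 and 9.20 in the fish oil rats and 9.28, 9.34, 9.22, 9.38 and 9.14 in the olive oil rats, so that rat 236 fell inside the olive oil range.

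The other genes higher in fish oil by the rule had differences of 0.30 to 0.59. Slc25a34, a member of the mitochondrial carrier family, was 8.80, 8.61, 8.44 and 8.44 against 8.31, 8.18, 8.12, 8.20 and 8.04, without overlap. Its difference of 0.40 (SE 0.13) was 0.46 (SE 0.12) at 12 h, and it passed with array quality weights, at 0.50 (adjusted p = 0.0364). Ccdc120, Serinc5 and Ppp1r14c, the last an inhibitor of protein phosphatase 1, also did not overlap, at 0.34, 0.46 and 0.42. For Ppp1r14c every fish oil rat but no olive oil rat at 10 wk exceeded the cut for tested probes, log2 7.66. The fish oil rats alone would thus have admitted this dim gene, whose mean was 7.71 in corn oil rats at 10 wk. Furin, the proprotein convertase, and Plcd3, a phospholipase C, overlapped, at 0.30 and 0.59, and Plcd3 had no value in olive oil rat 332.

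Of the 12 genes with lower values in fish oil, Canx, P4hb and Pdia4 are on the unfolded protein response list and Hspd1 on that of immediate early and heat shock genes. Hspd1, the mitochondrial chaperonin, was 10.89, 11.19, 10.52 and 10.23 in the fish oil rats and 11.32, 11.46, 11.31, 11.49 and 11.55 in the olive oil rats. All 4 fish oil rats lay below all 5 olive oil rats. The difference was -0.72 (SE 0.18, adjusted p = 0.568), and -0.03 (SE 0.17) at 12 h. Its partner Hspe1 was at -0.08 (SE 0.17) and Hspa8, a cytosolic chaperone of the same list, at -0.18 (SE 0.24). Canx, the ER lectin chaperone calnexin, was 11.23, 11.44, 10.92 and 10.66 against 11.51, 11.57, 11.76, 11.65 and 11.49, and P4hb, a protein disulfide isomerase, was 12.34, 12.36, 12.04 and 11.74 against 12.57, 12.60, 12.63, 12.61 and 12.55. Neither overlapped between the groups, and the olive oil rats spread less than the fish oil rats for both. Their differences were -0.53 (SE 0.14) and -0.47 (SE 0.13). Pdia4, another disulfide isomerase of the ER, was 9.89, 10.06, 9.93 and 9.86 against 10.22, 10.45, 10.70, 10.84 and 10.39, a difference of -0.59 (SE 0.16). Here the fish oil rats spread less, and the 12 h difference was 0.12 (SE 0.15).

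**Figure D3:**
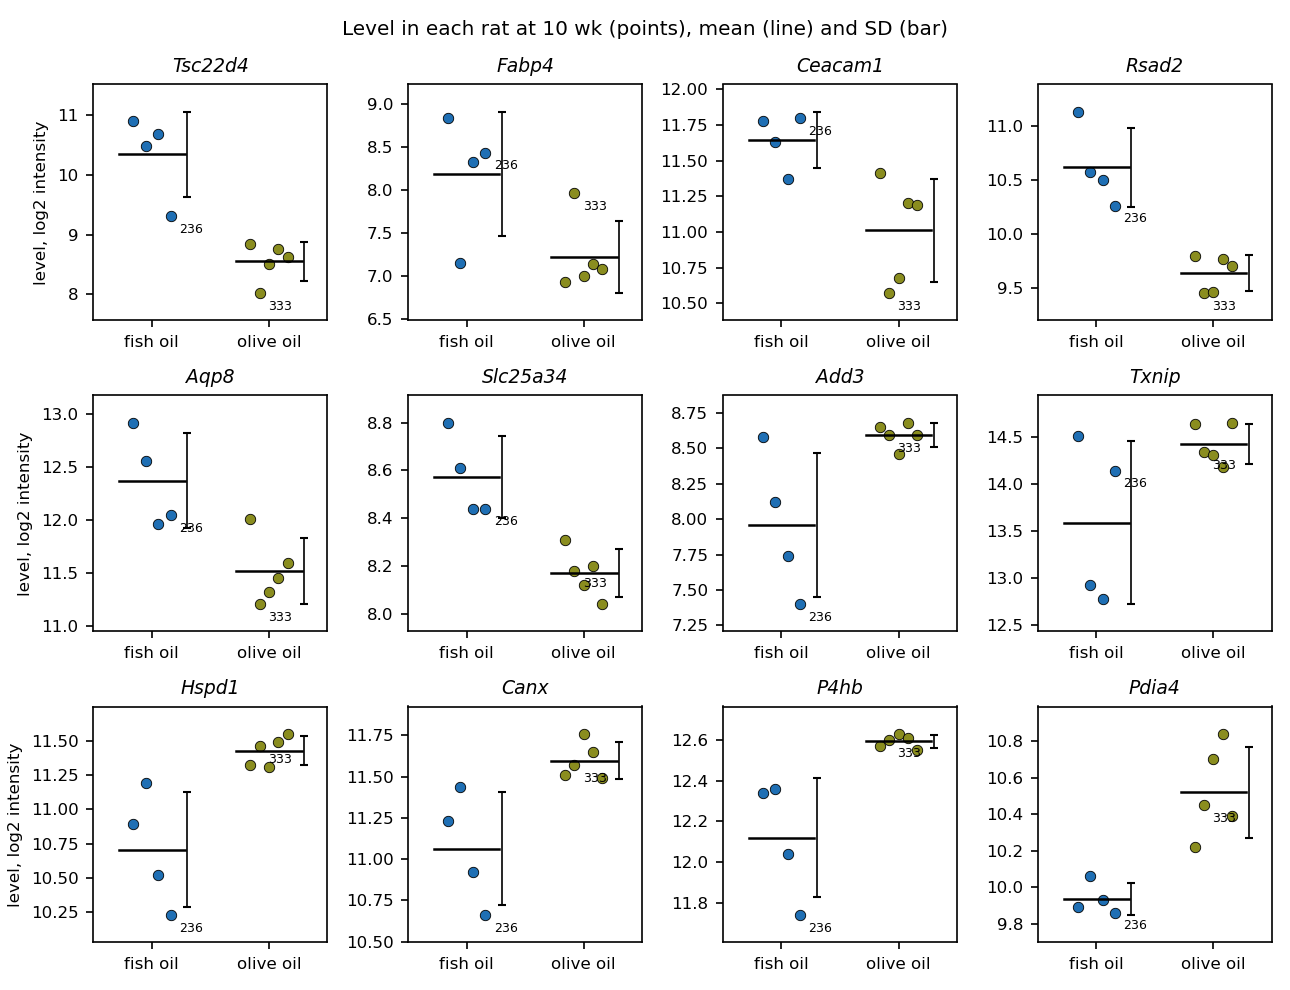
Level of 12 genes (log2 intensity) in each rat at 10 wk, with the mean (line) and SD (bar) of the 4 fish oil and 5 olive oil rats; rat 236, with 3 high-background arrays, and rat 333, with the large spots array, are labelled. The groups do not overlap for Tsc22d4, Rsad2, Slc25a34, Hspd1, Canx, P4hb and Pdia4, and they overlap for Fabp4, Ceacam1, Aqp8, Add3 and Txnip.

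Rat 236 was the lowest fish oil rat in 11 of the 12 genes with lower values, against 2 of the 12 with higher ones, and it carries the high-background arrays. Without it Hspd1 was -0.56, Canx -0.40, P4hb -0.35 and Pdia4 -0.56. With the rat kept but its high-background arrays left out they were -0.71, -0.55, -0.45 and -0.64. For Hspd1, Canx and P4hb leaving out the rat moved the difference more than leaving out those arrays, and for Pdia4 both moves were 0.05 or less.

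The unfolded protein response is the programme by which cells raise ER chaperones when unfolded proteins accumulate. Of the 34 genes listed for it 23 are on the array and 22 were tested, and 17 had lower means in fish oil, with a median difference of -0.17. None passed. At an unadjusted p under 0.05 there were 5, all lower, against 2.91% of named genes in that direction: Canx, P4hb, Pdia4, Chac1, which degrades glutathione, at -0.86 (SE 0.34), and Dnajc3, a co-chaperone, at -0.30 (SE 0.14). Chac1 is dim, and of the 9 rats only olive oil rats 334, 335 and 336 exceeded the cut for tested probes, log2 7.66. The mean level of the 22 genes was 10.15, 10.24, 10.07 and 10.03 in the fish oil rats and 10.22, 10.31, 10.36, 10.25 and 10.34 in the olive oil rats. Only fish oil rat 233 exceeded an olive oil rat, and that by 0.02. The median stayed between -0.23 and -0.08 over 31 settings, the values nearest 0 coming from the deposited normalized values.

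Promoters are shown for the 3 ER genes with the smallest p of that list and for Rsad2, since short elements in the promoters of such genes are how the unfolded protein response and interferon are known to reach them. The sequences are RefSeq's on build GRCr8, from 250 bases before to 50 after the gene's start, in the gene's direction, and 20 of the 24 genes chosen by p matched an entry. Capitals mark a match to the ER stress response element, CCAAT and CCACG with 9 bases between, in the first 3 and to the pair GAAA and GAAA with 2 bases between, the core of the interferon stimulated response element, in Rsad2, on either strand.
Canx, chr10:35157808-35158107, minus strand: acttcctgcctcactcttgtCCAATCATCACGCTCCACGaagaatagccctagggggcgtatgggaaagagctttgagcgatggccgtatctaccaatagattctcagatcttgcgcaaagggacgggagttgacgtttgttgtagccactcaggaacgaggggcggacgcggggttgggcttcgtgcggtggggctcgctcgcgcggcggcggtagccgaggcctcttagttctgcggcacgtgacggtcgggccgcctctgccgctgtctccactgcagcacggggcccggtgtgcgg
P4hb, chr10:106346862-106347161, minus strand: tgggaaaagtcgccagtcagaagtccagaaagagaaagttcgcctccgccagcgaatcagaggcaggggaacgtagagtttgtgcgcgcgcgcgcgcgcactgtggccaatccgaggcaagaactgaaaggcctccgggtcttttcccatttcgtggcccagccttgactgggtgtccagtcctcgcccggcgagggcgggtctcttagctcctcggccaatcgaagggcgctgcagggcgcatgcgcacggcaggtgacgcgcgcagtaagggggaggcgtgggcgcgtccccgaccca
Pdia4, chr4:78153142-78153441, minus strand: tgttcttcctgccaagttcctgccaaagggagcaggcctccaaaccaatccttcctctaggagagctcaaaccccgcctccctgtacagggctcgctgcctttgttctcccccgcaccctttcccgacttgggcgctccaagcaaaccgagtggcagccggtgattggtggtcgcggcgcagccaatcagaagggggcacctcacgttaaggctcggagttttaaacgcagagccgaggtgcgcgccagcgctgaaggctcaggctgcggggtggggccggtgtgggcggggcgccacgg
Rsad2, chr6:48788071-48788370, minus strand: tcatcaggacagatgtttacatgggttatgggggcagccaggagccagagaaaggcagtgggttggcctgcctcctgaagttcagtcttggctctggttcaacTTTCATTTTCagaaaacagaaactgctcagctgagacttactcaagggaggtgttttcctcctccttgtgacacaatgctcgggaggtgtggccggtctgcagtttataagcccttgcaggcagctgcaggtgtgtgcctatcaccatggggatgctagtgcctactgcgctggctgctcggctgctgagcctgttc
The ER stress response element is in 0.0657% of the 33469 promoters of the table and in 4 of the 17 tabulated promoters of the tested unfolded protein response genes, those of Canx, Creld2, Dnajc3 and Hspa5. Among the 3 shown Canx has it and P4hb and Pdia4 have no such letters in this window, though both hold its parts, CCAAT and CCACG, which are in 37.5% and 31.6% of all promoters. The 2nd form of the element, ATTGG and CCACG with 1 base between (0.0508% of promoters), and the element TGACGTGG (0.595%) are in none of the 4 windows, nor are AGGTCA repeated with 1 base between, a PPAR element (0.0538%), and TCAC and CCAC with 1 base between, a sterol element (1.12%). The GAAA pair 2 bases apart is in 3.92% of promoters and in 8 of 16 of the interferon response genes, and among the 4 shown it is in Rsad2 and also in P4hb, where it is not capitalised. The same pair 1 base apart (3.50%) is in none of the 4. Such matches describe the letters and show no binding.

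Txnip, the inhibitor of thioredoxin that follows glucose, was 14.51, 12.92, 12.78 and 14.14 in the fish oil rats and 14.64, 14.34, 14.31, 14.18 and 14.65 in the olive oil rats. Fish oil rats 233 and 234 lay far below, while 232 and 236 lay among or next to the olive oil rats. The difference was -0.84 (SE 0.23, adjusted p = 0.568), and it passed without rat 232, at -1.14 (adjusted p = 0.0358), and with array quality weights, at -1.03 (adjusted p = 0.0364). With the deposited normalized values and their constants kept, Txnip was at -0.02. Add3, the gamma subunit of the membrane skeleton protein adducin, was 8.58, 8.12, 7.74 and 7.40 against 8.65, 8.59, 8.46, 8.68 and 8.59. Only rat 232 overlapped, and without that rat the difference of -0.63 (SE 0.15, adjusted p = 0.568) became -0.84 and passed (adjusted p = 0.00738). Without rat 236 it was -0.45.

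The remaining genes with lower values lay between -0.67 and -0.40. App, the amyloid precursor protein, was measured at -0.67 (SE 0.18) and -0.43 without rat 236. Arfip1, which binds small G proteins, was at -0.54, Rab11b, a G protein of recycling endosomes, at -0.50 (-0.33 without rat 236), and Itgb1, the integrin beta 1 chain, at -0.40. Psmb2, a proteasome subunit, was at -0.40 (SE 0.12) without overlap, and its other probe gave -0.20. Eif2b5, a subunit of the translation factor eIF2B, was at -0.43 (SE 0.12) without overlap, but its other probe gave 0.03. Outside the rule and chosen after its values were seen, Ctsc, the lysosomal protease cathepsin C, had the probe with the smallest limma p of all, 0.000114 (adjusted p = 0.568), at -0.59 (SE 0.13), and its other probe gave -0.41, both without overlap.

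Genes that handle fat showed no common direction. Of 27 tested genes of fatty acid oxidation and PPAR targets 15 were positive and 12 negative, with a median of 0.04. Cpt1b, the muscle form of the enzyme that admits fatty acids to mitochondria, was 7.90, 7.86, 7.79 and 7.99 in the fish oil rats and 7.65, 7.50, 7.57, 6.89 and 7.67 in the olive oil rats. The groups did not overlap, with a difference of 0.43 (SE 0.16, adjusted p = 0.815). All 4 fish oil rats but only olive oil rat 336 exceeded the cut for tested probes, log2 7.66. The 4 fish oil rats alone would thus have admitted this dim gene to the test. Its mean was 7.28 in corn oil rats at 10 wk and 6.69 and 6.68 in fish oil and olive oil rats at 12 h. Hadh, an enzyme of beta oxidation, was at -0.28 (SE 0.10) and Ucp2, a mitochondrial carrier, at -0.41 (SE 0.17), with another Ucp2 probe at -0.06. Txnip is the 4th of this list at an unadjusted p under 0.05.

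Among 16 tested lipogenesis and desaturation genes 8 were positive and 8 negative, with a median of 0.00, and the smallest p belonged to Elovl5, Acsl3, Agpat2 and Dgat2. Acsl3, which activates long-chain fatty acids, was measured at 0.28 (SE 0.15) and Elovl5, which elongates polyunsaturated ones, at -0.23 (SE 0.16). Dgat2, the last step of triglyceride synthesis, was at 0.30 (SE 0.23) and Agpat2 at -0.15 (SE 0.11), or -0.09 without either rat 236 or rat 333. All 4 overlapped between the groups.

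Cholesterol synthesis and uptake had 6 positive and 8 negative of 14 tested genes and a median of -0.05. Nsdhl was at -0.31 (SE 0.12, adjusted p = 0.919), and the synthesis enzymes Sqle, Msmo1 and Fdft1 were at -0.13, -0.16 and -0.20, all within 2 standard errors of 0, and Msmo1 was at -0.08 without rat 236. Another Fdft1 probe gave 0.14.

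Eicosanoid metabolism and receptors had 8 positive and 7 negative of 15 tested genes, a median of 0.03 and none at an unadjusted p under 0.05. Alox5, the 5-lipoxygenase of leukotriene synthesis, was 7.92, 8.06, 7.47 and 7.82 against 7.55, 7.69, 7.60, 8.09 and 7.47. The groups overlapped fully, with a difference of 0.14 (SE 0.14, 95% interval -0.15 to 0.43). The prostaglandin receptor gene Ptger4 was at -0.10 (95% interval -0.38 to 0.18, -0.05 without rat 236), the secreted phospholipase gene Pla2g10 at -0.12 (-0.30 to 0.05) and Cyp2j3, a P450 epoxygenase, at 0.26 (-0.17 to 0.69). The intervals of Alox5, Ptger4 and Pla2g10 thus lay within 1.5-fold in either direction.

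**Figure D4:**
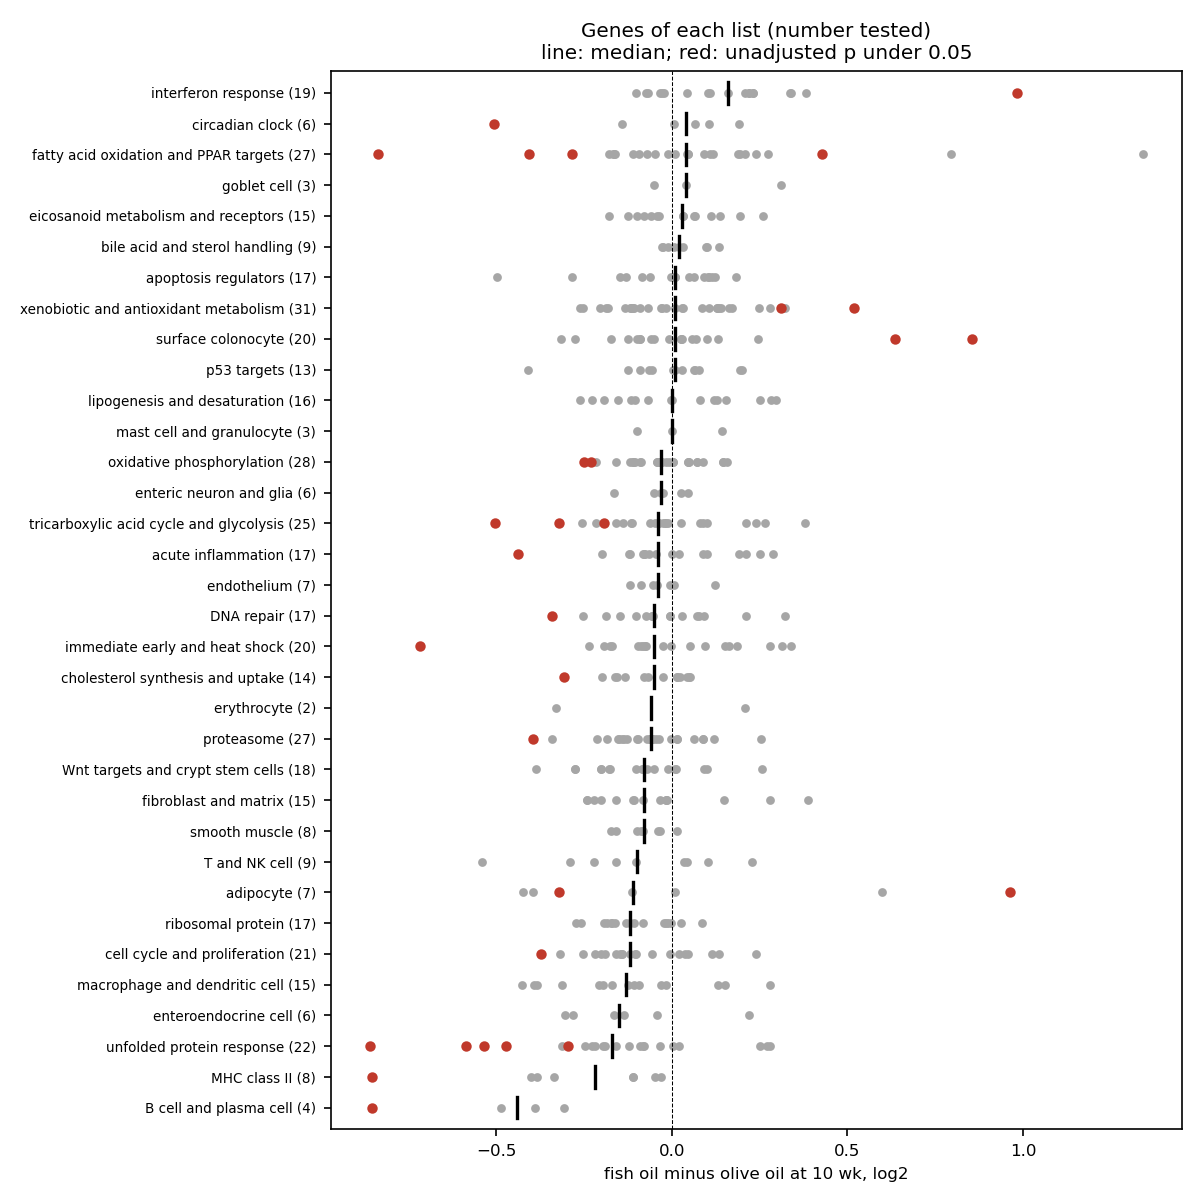
Difference between fish oil and olive oil at 10 wk (log2) of each tested gene in 34 lists, with the list's median as a line and the number of genes tested in brackets; red points are at an unadjusted p under 0.05, and none passed after adjustment. The lists on dietary fat have medians from -0.05 to 0.04, the unfolded protein response list one of -0.17 and the interferon list one of 0.16.

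Genes of immune cells had more negative than positive differences, and none passed. All 8 tested MHC class II and antigen presentation genes were negative, with a median of -0.22. RT1-Bb, a class II beta chain, was 8.90, 9.30, 8.50 and 7.27 against 9.84, 9.09, 8.98, 9.76 and 9.09, a difference of -0.86 (SE 0.39, adjusted p = 1). Rat 236 stood lowest and rat 233 lay inside the olive oil range, and without rat 236 the difference was -0.45. Over the settings that tested it RT1-Bb lay between -1.12 and -0.25. Cd74, the invariant chain, was at -0.38 (SE 0.34), or -0.25 without rat 236, RT1-Da at -0.40 (SE 0.37) and RT1-DMb at -0.34 (SE 0.26), all overlapping. Against corn oil rats at 10 wk, fish oil rats differed by -0.40 for RT1-Bb, 0.12 for Cd74, 0.19 for RT1-Da and 0.03 for RT1-DMb. Olive oil rats differed from corn oil rats by 0.46, 0.50, 0.59 and 0.36 for the same genes. None of these passed. The B and plasma cell list had 4 tested genes, RT1-Bb, Pigr, Cd37 and Jchain, all negative with a median of -0.44. RT1-Bb is also counted under class II, and Pigr encodes an immunoglobulin receptor of epithelial cells. Cd37 was at -0.39 (SE 0.40) and Jchain at -0.31 (SE 0.35), both overlapping. The list thus does not describe B and plasma cells alone. Its mean level was 9.75, 10.35, 9.74 and 8.86 in fish oil and 10.39, 9.90, 10.07, 10.48 and 10.10 in olive oil rats. Macrophage and dendritic cell genes had 12 negative of 15 and a median of -0.13, and T and NK cell genes 5 of 9 and -0.10. Over 31 settings the median stayed negative for the lists of class II (-0.34 to -0.04), B and plasma cell (-0.67 to -0.17) and macrophage genes (-0.19 to -0.04). It did not for the list of T and NK cell genes (-0.21 to 0.05). Il33, an alarmin of epithelial and stromal cells, was at -0.44 (SE 0.16, adjusted p = 0.854), with its other probe at -0.33. Olive oil rats 332, 334, 335 and 336 but no fish oil rat at 10 wk exceeded the cut for tested probes, log2 7.66. These olive oil rats alone would thus have admitted this dim gene to the test.

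Lists of energy metabolism, protein turnover and growth had medians from -0.12 to -0.03, against -0.002 over the named genes. Oxidative phosphorylation had a median of -0.03 over 28 tested genes, with Ndufb10 at -0.25 (SE 0.11) and Atp5mc2 at -0.23 (SE 0.10), and tricarboxylic acid cycle and glycolysis -0.04 over 25, with the glycolytic enzyme Pkm at -0.50 (SE 0.16, adjusted p = 0.619), Idh3g at -0.19 (SE 0.09) and Pck1 at -0.32 (SE 0.15). Proteasome genes were negative in 20 of 27, at a median of -0.06, with Psmb1 at -0.21 (SE 0.11) beside Psmb2, and ribosomal protein genes in 15 of 17, at -0.12, with Rpl10a at -0.27 (SE 0.16). Over 31 settings the proteasome median ran from -0.10 to 0.07 and the ribosomal one from -0.19 to 0.18, so that neither kept its sign.

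Cell cycle and proliferation had a median of -0.12 over 21 genes, 15 of them negative, with the primase Prim1 at -0.37 (SE 0.14) and no overlap. This median stayed between -0.30 and -0.05 over 31 settings, and at 12 h it was 0.32. Wnt targets and crypt stem cells had -0.08 over 18, with Cd44 at -0.28 (SE 0.20). DNA repair had -0.05 over 17, with Parp1 at -0.34 (SE 0.15), p53 targets 0.01 over 13, with Cdkn1a at 0.20 (SE 0.11) and its other probe at -0.66, and apoptosis regulators 0.01 over 17, with Casp1 at -0.28 (SE 0.20), or -0.16 without rat 236. Xenobiotic and antioxidant metabolism had 0.01 over 31, with Hmox1, the heme-degrading stress enzyme, at 0.52 (SE 0.20, adjusted p = 0.885) and Sult2b1 at 0.31 (SE 0.15). Bhlhe40, a clock repressor, was at -0.51 (SE 0.19) in a clock list with a median of 0.04 over 6.

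Acute inflammation had a median of -0.04 over 17 and immediate early and heat shock genes -0.05 over 20, where Hspd1 was the member at an unadjusted p under 0.05. Bile acid and sterol handling had 0.02 over 9, with the transporter gene Abcc3 at 0.13 (SE 0.11). The lists for other cell types had medians of -0.15 (enteroendocrine), -0.08 (smooth muscle), -0.08 (fibroblast and matrix), -0.06 (erythrocyte), -0.04 (endothelium), -0.03 (enteric neuron and glia), 0 (mast cell and granulocyte) and 0.04 (goblet cell). None of their members was at an unadjusted p under 0.05. For all 34 lists the range of the mean level over fish oil rats overlapped with that over olive oil rats.

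Fabp2, the intestinal fatty acid binding protein, had large measured differences that the rats' spread makes uncertain. On 1 probe it was 12.46, 12.66, 9.11 and 12.61 in the fish oil rats and 12.24, 12.16, 8.91, 8.92 and 8.37 in the olive oil rats, and on the other 13.22, 13.31, 9.40 and 12.87 against 13.09, 12.58, 9.76, 9.56 and 9.29. Both probes put 3 fish oil and 2 olive oil rats high and 1 fish oil and 3 olive oil rats low, so the same gap ran through both diets. The differences were 1.59 (95% interval -0.37 to 3.55) and 1.34 (-0.65 to 3.33), and at 12 h they were 0.01 and 0.10. Without fish oil rat 234, the low one, they were 2.46 and 2.28. These were chosen after their values were seen, for exceeding 2-fold.

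The other named genes past 2-fold were Retsat, Sf3a1 and Myo1d. Retsat, retinol saturase, at 1.53 (SE 0.93), rests on olive oil rat 333 at the floor of the scale, 6.46, with the other olive oil rats from 11.12 to 13.06, and without rat 333 the difference was 0.32. Sf3a1, a splicing factor gene, at 1.11 (SE 0.43), had olive oil rat 336 at the floor and was 0.55 without that rat, and neither gene had a value in fish oil rat 233. Myo1d, an unconventional myosin, at -1.01 (SE 0.36, adjusted p = 0.798), was 9.13, 9.42, 7.67 and 7.30 against 9.59, 8.87, 9.58, 9.22 and 9.68, with rats 234 and 236 below the others, and without rat 236 the difference was -0.65.

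The same contrast in the 12 h rats, which are other animals, gave 0 calls of 6374 (0%) and 484 probes (7.59%) at an unadjusted p under 0.05, 223 higher (3.50%) and 261 lower (4.09%). The difference between the times, tested within the same fit, gave 0 calls (0%) and 220 probes (3.45%) at an unadjusted p under 0.05, 106 positive (1.66%) and 114 negative (1.79%). It was -0.69 (SE 0.25) for Hspd1, -0.70 (SE 0.22) for Pdia4, -0.38 (SE 0.19) for Canx and -0.36 (SE 0.17) for P4hb, and for Aqp8 it was -0.01 (SE 0.40) and for Fabp4 0.18 (SE 0.37), each at an adjusted p of 0.996 or, for Aqp8, 0.998. Chac1, also on the unfolded protein response list, went the other way, with a difference between the times of 0.37 (SE 0.48, adjusted p = 0.996). At 12 h Chac1 differed by -1.23 (SE 0.34). The median of that list was -0.10 at 12 h, against -0.17 at 10 wk. The differences between the times share the 10 wk rats with the differences above.

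Across the 6374 probes the differences at 10 wk and 12 h correlated at r = 0.19, and 55.1% had the same sign. The 2 contrasts share the normalization and no rats. Of the 302 probes at an unadjusted p under 0.05 at 10 wk 235 (77.8%) had the same sign at 12 h. Scan class moved with diet at 12 h, where most fish oil arrays had a small ring and most olive oil arrays large spots. Without olive oil rat 333, the one late rat of these diets with large spots, the shares were 73.7% and 51.4% of all probes. Without large spots arrays in any group they were 64.9% and 48.5%, and with scan class as a block they were 77.3% and 56.0%. The part of scan class in the shared signs was not tested further.

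**Figure D5:**
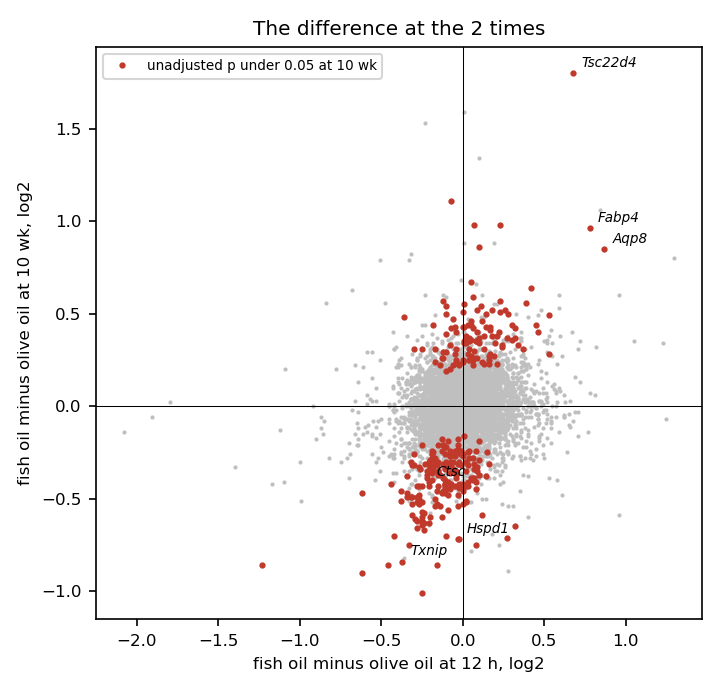
Difference between fish oil and olive oil at 10 wk against that at 12 h (both log2) for the 6374 tested probes; red points are the 302 at an unadjusted p under 0.05 at 10 wk. Tsc22d4, Fabp4 and Aqp8 lie high on both axes, whereas Hspd1 is low at 10 wk and near 0 at 12 h, and of the red points 77.8% have the same sign at both times.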

How the data were processed

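Total RNA was labelled as biotin cRNA and stained with Alexa-647 streptavidin for 1-colour arrays, per the labels' protocols. The deposited array files hold spot mean and local background intensity for 8452 probes (8449 on 1 array of olive oil rat 334) per the file headers, with -9999 for missing spots; the sources used here do not name the quantification software. The deposited normalized intensity carries 1 constant per diet on 1559 fish oil and 1227 olive oil probes, so spot mean and background median were used. The deposited intensity was corrected by normexp (offset 50), quantile normalized, floored at the 10th percentile (log2 6.46), turned into log2 values and averaged per rat in limma 3.58.1 (R 4.3.3).

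Tested probes exceeded the 30th percentile (log2 7.66) in at least 4 rats and had values from at least 2 rats in every group, the last a condition added after a first fit that also made 0 calls. The rats of 1 group alone could thus admit a dim probe. All 29 rats in 6 groups entered 1 limma fit (23 residual degrees of freedom, prior 4.2). The limma p-values and intervals rest on the spread between rats within all 6 groups, not within the 2 compared groups alone. The number of rats compared, 4 and 5, limits the precision. The fit was tested on simulated data. The platform annotation gives 6252 probes 1 symbol, 75 several and 2125 none. The probe with the highest mean stands for a gene.

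Members, lists and tests were chosen with earlier results of these data known. The 34 lists hold 1319 entries, 629 on the array and 492 tested. Named genes are the 12 in each direction with the largest difference among passing ones, filled by smallest p, and up to 4 members of each list by smallest p. After the values were seen this was narrowed to members at an unadjusted p under 0.05, or the first. All 4 of the lists on dietary fat and further class II, interferon, adipocyte and proteasome members were kept as well. Dnajc3, Hspe1, Hspa8, Pigr, Cd37 and Jchain are outside this choice. The class of a scan was set from spot, ring and background columns with limits chosen after these were seen. Promoter motifs were chosen after the genes were known. Alternatives comprised 27 planned and 3 added after seeing the data.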

Additional observations from a re-analysis of the deposited data

Results flagged for a closer look

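Single rats stood apart from the rest of their group by Dixon's test in 6 of 152 sets of values, where chance gives about 1 in 20. All 6 were olive oil rats. Rat 333 was highest for Fabp4 (7.96, the nearest rat at 7.14) and lowest for Il33 (7.37, the nearest at 7.96). Rat 335 was highest for Parp1 (8.43, the nearest at 7.93), lowest for Cpt1b (6.89, the nearest at 7.50) and lowest for the share of spots above noise (93.0%, the nearest at 99.0%). Rat 336 was lowest for Idh3g (11.82, the nearest at 11.88). Their part in the differences was not tested beyond leaving each rat out.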

How the results depend on the processing

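Of the 30 alternatives, 23 gave 0 calls between fish oil and olive oil at 10 wk, as reported. No filter on dim probes gave 1, the first array of each rat 1, scan class as a block 1 and the large ring class alone 1; apart from a probe with no symbol without the filter, each was Tsc22d4. Array quality weights gave 11, and 142 at 12 h. Leaving out each rat in turn gave 0 to 2 calls, the 2 being Txnip and Add3 without fish oil rat 232. The deposited normalized values gave 0 calls without the replaced probes. With their constants kept, an alternative chosen after seeing the data, they gave 9 at 10 wk, all 9 on probes that hold a constant, 22 at 12 h and 1 for the difference between the times. Median scaling moved the median of all differences to 0.05, and the share of higher values among probes at an unadjusted p under 0.05 from 37.1% to 60.7%. Differences changed sign for Fdft1 (0.01), Ptger4 (0.02) and Csrp1 (0.10) with array quality weights, for Csrp1 with scan class as a block (0.01), in the large ring class and in all large ring arrays (0.06 each) and without rat 236 (0.07, the range without single rats being -0.27 to 0.07), for Pla2g10 in both deposited settings (0.02), for Agpat2 with the constants kept (0.02) and for Cdkn1a with the mean of its probes (-0.23). All other genes run through the alternatives kept their direction in every one that gave them a value, and the cause was not tested. Hspe1, Hspa8, Ctsc, Dnajc3, Pigr, Cd37, Jchain, Fabp2, Retsat, Sf3a1 and Myo1d were not run through them. For the last 4 of these only the means without single rats were taken. Csrp1 was at -0.16 as reported and -0.10 without rat 333. The permutation p of Fabp4 lay between 0.0571 and 0.0714 in 7 of the settings without a rat. Dim spots limit what the arrays show, and spots below the floor have no order. No paired analysis was possible because the repeat numbers mark repeat arrays of 1 rat and animal numbers differ between the groups.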
